A study of Mus musculus with 8 samples.

Results

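Solute carriers are membrane proteins that move amino acids, sugars, ions, metals, vitamins and metabolites across the cell membrane and the membranes of organelles. Their genes carry the symbol Slc, a family number and a member number, and members of 1 family share a fold and often a class of substrate. In the blastocyst the outer layer, the trophectoderm, takes up amino acids, moves ions and water into the cavity and feeds the inner cells, and system B0,+ in that layer, encoded by Slc6a14, is known for the leucine uptake that precedes trophoblast outgrowth. Mitochondrial carriers, the Slc25 family, link the matrix with the cytosol, and among them the ADP/ATP carriers export the ATP made by respiration.

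The genes described here were chosen by their symbol and by a level of at least 1 FPKM in at least 2 of 8 libraries. FPKM is the number of fragments per kilobase of transcript, scaled to the fragment total of the library. Of 293 rows with an Slc symbol among 19688 genes, 162 met the rule, 126 did not reach the level and 5 (Slc2a1, Slc2a3, Slc7a11, Slc40a1 and Slc11a2) were left out by name. The level in the rule is a measured value, so the presence of a gene among the 162 is no finding. Just inside the rule, the second highest library read 1.004 FPKM for Slc41a3, 1.011 for Slc18a1, 1.014 for Slc2a12 and 1.055 for Slc25a21. Just outside it read 0.991 for Slc35e2, 0.964 for Slc22a18 and 0.956 for Slc25a35. Through vitrified libraries alone 5 genes reached the rule (Slc26a11, Slc18a1, Slc22a16, Slc22a17 and Slc2a12), and Slc25a21 did so through melatonin libraries alone, so a difference between groups was partly built into these 6.

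The libraries came from mouse blastocysts, with 2 libraries of fresh blastocysts that were not vitrified, 3 of blastocysts vitrified without melatonin, and 3 of blastocysts vitrified with melatonin at 1e-10 M in the media used for vitrifying and for thawing. The titles of the fresh libraries begin with IVF, the usual short form of in vitro fertilization. No source used here gives the strain, the embryo age, the number of embryos per library or whether libraries came from separate batches of embryos. The p-values thus measure the spread between these libraries, which may be technical. In whole blastocysts fewer cells of a type and less RNA per cell cannot be told apart. The study asked how melatonin during vitrification affects the embryo and its transcriptome.

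Depth, estimated from the steps between low FPKM values, was 5844000 to 9931000 fragments per library, so that 1 FPKM of a 2 kb transcript stood for 11.7 to 19.9 fragments. Summed epiblast markers (11 genes) read 8223.8 to 11224.4 FPKM and trophectoderm markers (12 genes) 8026.1 to 12737.1 FPKM, so both sums were high in every library. The epiblast sum was nearly all Dppa5a, so it does not show the level of the other epiblast markers. Of 10 tested epiblast markers 7 were higher and 1 lower at an unadjusted p below 0.05 in vitrified against fresh blastocysts. Of all tested genes 15.6% were higher and 4.56% lower at that p. The lower marker was Zfp42 (216 and 245 FPKM fresh, 175 to 197 vitrified, 216 to 250 with melatonin). Dppa5a also had a log2 difference below 0, at -0.31. Nanog, a defining epiblast gene, read 3.49 and 9.8 FPKM fresh, 28.3 to 33.3 vitrified and 37 to 54.6 with melatonin, a rise from fresh to vitrified (limma adjusted p = 0.0394). Of 11 tested trophectoderm markers 1 was higher and 1 lower at an unadjusted p below 0.05 in that comparison, with a median of 0.07. They were Gata3 (67.3 and 78.2 FPKM fresh, 112 to 165 vitrified, 104 to 114 with melatonin) and Elf5 (16.2 and 15.8 fresh, 5.72 to 9.32 vitrified, 7.58 to 10.6 with melatonin). Primitive endoderm markers (12 genes) summed to 68.2 and 165 FPKM fresh, 103 to 164 vitrified and 63.9 to 87.5 with melatonin. Their median was -0.64 in melatonin against vitrified and -0.63 in melatonin against fresh, with 4 of 12 lower and 0 higher at an unadjusted p below 0.05 in each. Of all tested genes 10.2% were lower and 4.59% higher in the former comparison, and 6.82% and 11.6% in the latter. Blood and sperm markers summed to at most 2.79 FPKM in any library. Of 12 cumulus cell markers 5 had rows, and nearly all of their sum was Gja1, a gap junction gene that embryos express as well (9.7 and 29.7 FPKM fresh, 61.6 to 85.1 vitrified, 66.3 to 77.8 with melatonin), while the other 4 read at most 1.71 FPKM, with Has2 and Inha at 0 in all libraries but 1. The part of these markers in the results on carriers was not tested. Y-linked transcripts of 4 genes summed to 20.9 and 26 FPKM in the fresh libraries, to 36.8 in vitrified replicate 1, to 0 in vitrified replicates 2 and 3, and to 28.4 to 34.5 with melatonin. Xist, the RNA of the inactive X chromosome, read 10.5 and 8.14 FPKM in vitrified replicates 2 and 3 and at most 0.963 elsewhere. These 2 libraries thus stand apart for genes on X, and 9 of the 162 carriers lie there.

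The 162 genes were grouped by the substrate of the gene or of its family into 15 classes. The largest were mitochondrial carriers (29), metal and heme carriers (22), amino acid carriers (19) and nucleotide sugar carriers (17). Together they read 2879.1 to 3366.0 FPKM per library, which was 0.632% to 0.868% of all FPKM. Averaged over the 3 group means, 148 genes reached 1 FPKM, 81 reached 5, 50 reached 10, 14 reached 50 and 5 reached 100, and 120 were at 1 FPKM or more in all 8 libraries. The 5 highest were the ADP/ATP carriers Slc25a5 (688 FPKM) and Slc25a4 (323), the mitochondrial phosphate carrier Slc25a3 (115), and the amino acid carriers Slc6a14 (102) and Slc38a4 (101). These 5 genes made up 36.4% to 46.5% of the summed level of the 162 carriers in a library. Mitochondrial carriers as a class gave 40.5% to 54.2% of the sum and amino acid carriers 12.8% to 20.8%. The median level was highest in the peptide (19.3 FPKM, 2 genes), nucleoside (18.2, 5 genes) and amino acid classes (14.3), and lowest in the organic ion (2.03) and ion classes (2.4).

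**Figure D1:**
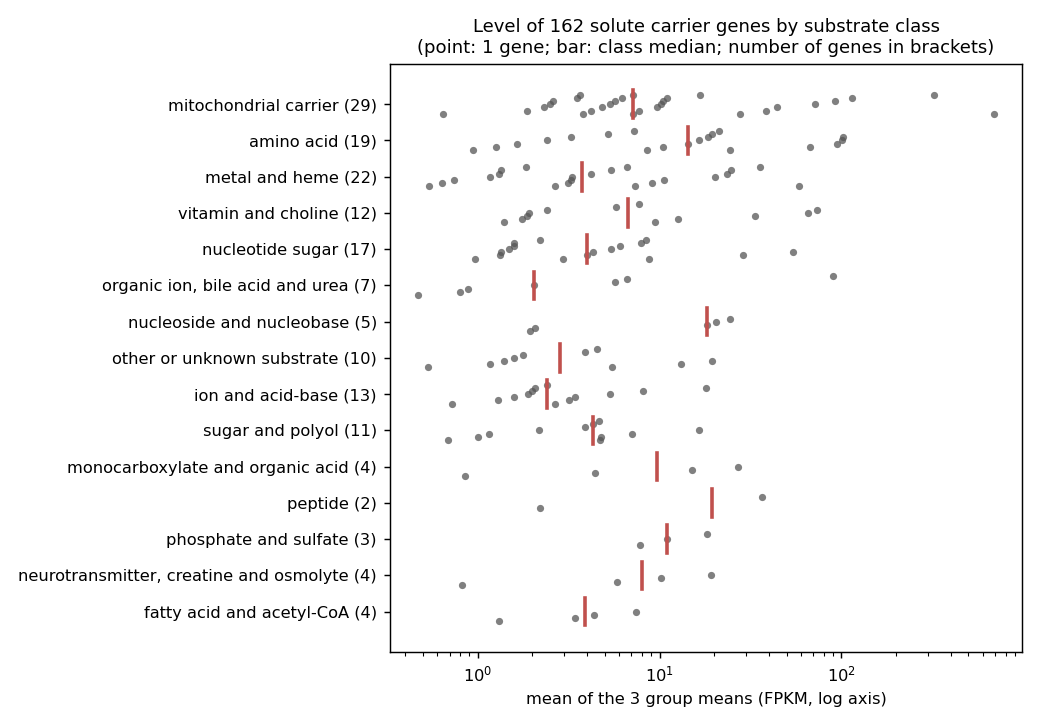
Level of each of 162 solute carrier genes (points; mean of the 3 group means in FPKM, logarithmic axis) by substrate class, with the class median as a bar and classes ordered from the top by summed level. The 2 points far to the right in the mitochondrial class are Slc25a5 (688 FPKM) and Slc25a4 (323 FPKM), and the amino acid class has the highest median (14.3 FPKM) of the classes with more than 5 genes.

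Vitrified against fresh blastocysts asked what vitrification and thawing leave behind. With limma on log2(FPKM + 1) and Benjamini-Hochberg adjustment over 10755 tested genes, 3 carriers rose and 0 fell at an adjusted p below 0.05, beside 0.762% of all tested genes called higher and 0.102% called lower. The 3 were Slc4a11, Slc17a5 and Slc39a4, which move protons and ammonia, sialic acid and zinc. At an unadjusted p below 0.05 there were 27 carriers higher and 14 lower. These are 16.7% and 8.64% of the 162, beside 15.6% and 4.56% of all tested genes. The libraries of the groups did not overlap for 39 carriers higher and 22 lower in the vitrified group, or 24.1% and 13.6%, beside 26.4% and 10.6% of all tested genes. The share of carriers on the higher side was thus near that of all tested genes, and the share on the lower side was above it, with no test of that difference. The median log2 fold change was 0.12 for the carriers and 0.14 for all tested genes. Median-ratio scaling and quantile normalization moved the median of all tested genes to 0.01 and -0.02 and that of the carriers to -0.01 and -0.06. The counts at an unadjusted p below 0.05 then became 18 higher and 24 lower, and 18 and 22, so which side held more carriers depended on the scaling. They were 15 and 18 without fresh replicate 1, and 37 and 7 without fresh replicate 2. The calls were 0 under either scaling and 0 to 6 when 1 library was left out. The 6, all higher, came without fresh replicate 2 (3.73% of 161 carriers tested, beside 3.52% of all genes tested in that fit). Class medians ran from -0.36 for amino acid carriers to 0.90 for carriers of organic ions, bile acid and urea, with no test between classes.

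**Figure D2:**
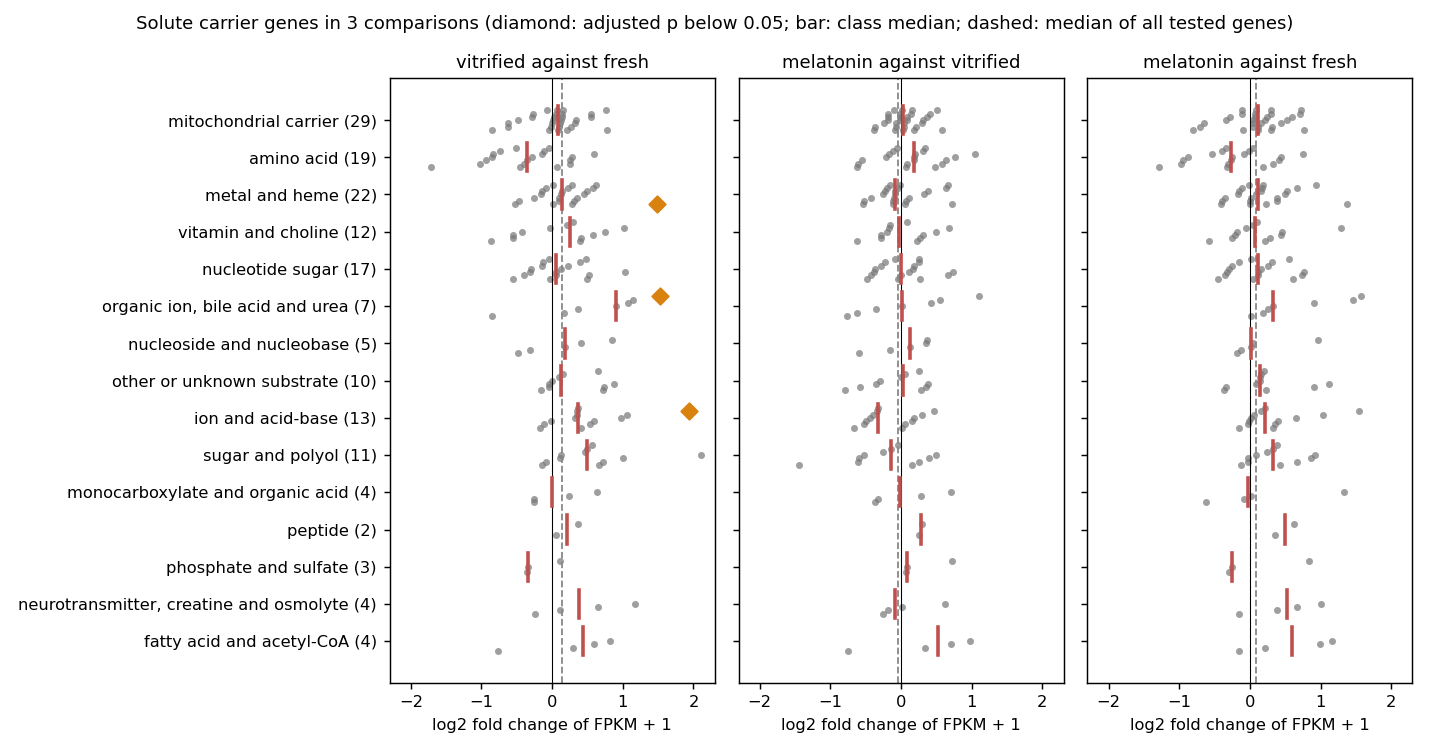
Log2 fold change of FPKM + 1 for each carrier (points) by substrate class in the 3 comparisons, with the class median as a bar, the median of all tested genes as a dashed line, and genes at an adjusted p below 0.05 as diamonds. The 3 diamonds, Slc4a11, Slc17a5 and Slc39a4, are in the comparison of vitrified with fresh blastocysts, where the bar of the amino acid class lies at -0.36 and that of the organic ion class at 0.90.

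Slc4a11 encodes an SLC4 family protein that conducts protons and ammonia and is best known from the corneal endothelium. It lies on chromosome 2 from 130684113 to 130697519, minus strand (GENCODE M21 on GRCm38, the source of all gene positions given here). It read 1.62 and 3.51 FPKM in the fresh libraries, 17.7, 10.6 and 9.41 in the vitrified ones, and 8.74, 10.6 and 7.95 with melatonin. All 6 vitrified libraries, with or without melatonin, were above both fresh ones. The group means were 2.56 ± 1.33 (SD, n = 2), 12.6 ± 4.51 (n = 3) and 9.09 ± 1.35 (n = 3) FPKM. The rise from fresh to vitrified was 1.93 ± 0.31 (log2 ± SE, limma adjusted p = 0.0394).

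Slc17a5 encodes sialin, which exports free sialic acid from the lysosome. It is on chromosome 9, from 78536488 to 78588041, minus strand, and read 2.78 and 2.18 FPKM fresh, 9.96, 7.02 and 10.1 vitrified, and 5.07, 7.65 and 4.11 with melatonin. The vitrified libraries were all above the fresh ones, and the melatonin libraries lay between, with 1 of them above the lowest vitrified library. Its rise was 1.52 ± 0.27 (log2 ± SE, limma adjusted p = 0.0434). Its 250 bases before the RefSeq transcription start (GRCm38.p6) are shown because it is the called carrier with a RefSeq window, and they hold 0 matches to the motifs searched (spelled out with the amino acid carriers).
Slc17a5, chr9:78588046-78588295, minus strand: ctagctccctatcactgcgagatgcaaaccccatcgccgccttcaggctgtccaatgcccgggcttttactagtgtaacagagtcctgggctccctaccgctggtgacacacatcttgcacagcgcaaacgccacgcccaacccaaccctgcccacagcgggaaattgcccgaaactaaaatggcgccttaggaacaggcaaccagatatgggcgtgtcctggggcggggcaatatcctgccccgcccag

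Slc39a4 encodes ZIP4, the plasma membrane zinc importer whose loss in humans causes acrodermatitis enteropathica. On chromosome 15, from 76612383 to 76617384, minus strand, it read 28.0 and 24.7 FPKM fresh, 96.4, 49.4 and 90.8 vitrified, and 82.1, 58.4 and 70.4 with melatonin. Every vitrified and every melatonin library was above both fresh libraries. The rise was 1.49 ± 0.28 (log2 ± SE, limma adjusted p = 0.0483). Each of the 3 calls is close to the threshold. When 1 library was left out, Slc4a11 was called without fresh replicate 2, Slc39a4 without vitrified replicate 2 and Slc17a5 without melatonin replicate 2, and none was called in the other 5 such fits. The direction was the same in every alternative, over a log2 range of 1.54 to 2.72 for Slc4a11, 1.32 to 1.82 for Slc17a5 and 1.32 to 1.83 for Slc39a4.

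**Figure D3:**
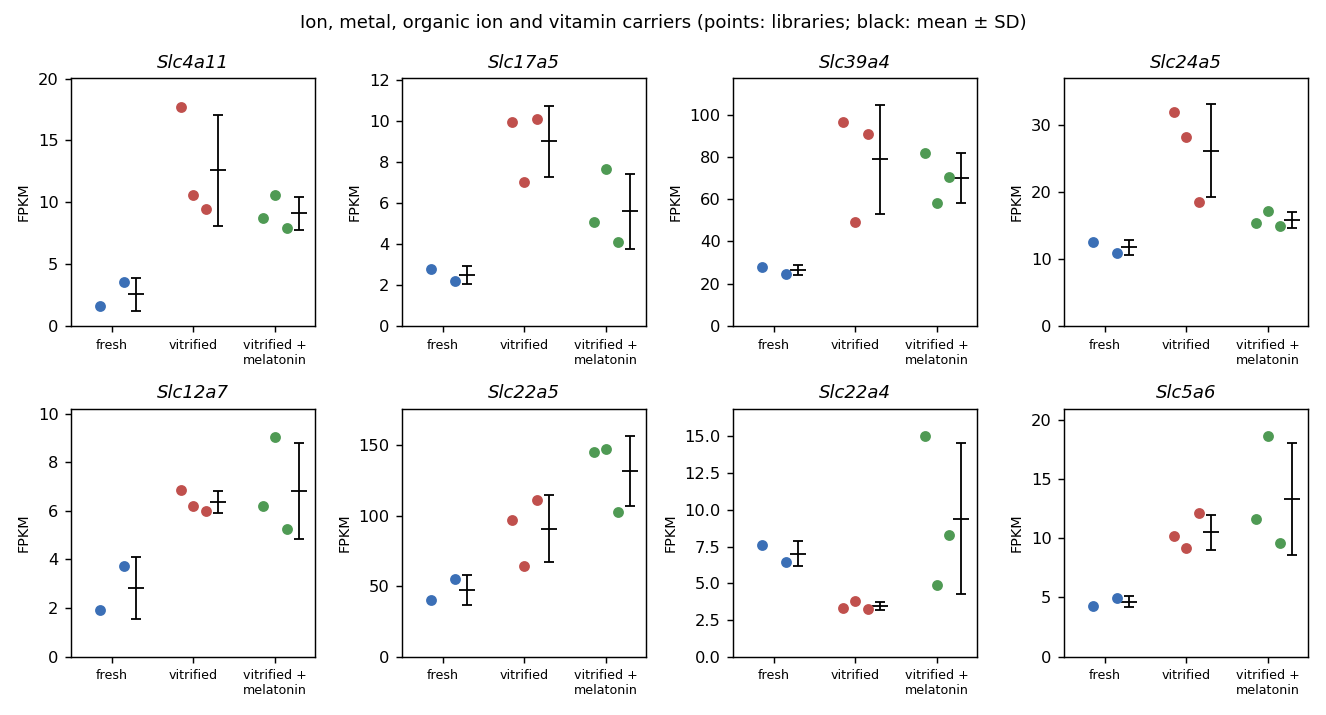
FPKM in each library (points; linear axis from 0) for the 3 called carriers and 5 further ion, organic cation and vitamin carriers, with mean ± SD in black for fresh (n = 2), vitrified (n = 3) and vitrified with melatonin (n = 3). Slc4a11 lies between 7.95 and 17.7 FPKM in all 6 vitrified libraries and at 1.62 and 3.51 in the fresh ones, and Slc22a4 is lowest in the vitrified group.

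The ion and acid-base class (13 genes) holds the exchangers and cotransporters that set cell pH and volume. Its median was 0.36 in vitrified against fresh, with 1 gene called and 12 not, 10 fold changes above 0, and 9 genes higher without overlap, where 26.4% of all tested genes were. Without Slc26a11, which met the rule through vitrified libraries alone, the median of the other 12 was 0.35, with 8 higher without overlap. Slc24a5, a potassium-dependent sodium/calcium exchanger known from pigment organelles, read 12.5 and 10.9 FPKM fresh, 31.8, 28.1 and 18.4 vitrified, and 15.4, 17.1 and 14.9 with melatonin. The vitrified libraries stood above all 5 others, and the difference from fresh was 1.06 ± 0.23 (log2 ± SE, limma adjusted p = 0.0578, not called). Its row overlaps Myef2 on the opposite strand, and no source used here says whether the authors counted by strand. Slc12a7, the potassium-chloride cotransporter KCC4, read 1.93 and 3.72 FPKM fresh, 6.86, 6.19 and 6.01 vitrified, and 6.19, 9.05 and 5.24 with melatonin. Both vitrified groups lay above the fresh one (0.98 ± 0.27, limma adjusted p = 0.0907, not called). Slc12a4 (KCC1) read 1.74 and 2.25 FPKM fresh and 2.6 to 5.11 vitrified, also without overlap.

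Classic regulators of embryo pH and volume include anion exchangers and chloride cotransporters. For the anion exchanger Slc4a2 the values were 1.64 and 3.56 FPKM fresh, 1.92 to 2.34 vitrified and 1.72 to 3.44 with melatonin. The row of Slc4a2 overlaps Fastk on the opposite strand, which averaged 10.1 FPKM over the libraries. Slc12a2, the sodium-potassium-chloride cotransporter NKCC1, read 0.951 and 1.93 fresh, 1.35 to 2.49 vitrified and 0.678 to 1.80 with melatonin. The groups overlapped for both genes in vitrified against fresh. Of a list of 14 acid-base and volume transporters 6 were tested, and Slc4a11 was the single one called.

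Carriers of organic ions, bile acid and urea (7 genes) had a class median of 0.90 in vitrified against fresh, with 1 gene called, 6 not, and 4 higher and 1 lower without overlap. Of all tested genes 26.4% were higher and 10.6% lower without overlap. Without Slc22a16, which met the rule through vitrified libraries alone, the median of the other 6 was 0.64, with 3 higher and 1 lower without overlap. Slc22a5, the carnitine importer OCTN2, was by far the most abundant (90.0 FPKM averaged over the groups). It read 39.9 and 54.9 FPKM fresh, 96.8, 64.4 and 111 vitrified, and 145, 147 and 103 with melatonin. No fresh library reached a vitrified one, and the log2 differences from fresh were 0.90 ± 0.26 for vitrified (limma adjusted p = 0.101) and 1.46 ± 0.26 for melatonin (adjusted p = 0.116), neither called. Slc22a21, a paralog that also carries carnitine and was chosen after its values were seen, read 0.502 and 0.398 FPKM fresh, 2.83, 1.21 and 2.89 vitrified, and 3.11, 2.86 and 3.99 with melatonin. The vitrified and melatonin libraries were again above the fresh ones. Reads of close paralogs can be shared, and no source used here says how the authors treated them.

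Slc22a4, the ergothioneine carrier OCTN1 encoded on the same chromosome 11, had another order. Its values were 7.60 and 6.42 FPKM fresh, 3.31, 3.77 and 3.27 vitrified, and 15.0, 4.90 and 8.30 with melatonin. The vitrified libraries were the 3 lowest of the 8, and the differences were -0.85 ± 0.35 against fresh (limma adjusted p = 0.22) and 1.11 ± 0.32 for melatonin against vitrified (adjusted p = 0.196). Slc22a16, a carnitine carrier known from testis, was listed at 0 in both fresh libraries, at 0.612, 1.64 and 1.21 FPKM in the vitrified ones and at 0.139, 0.562 and 0.0935 with melatonin. It is among the genes that met the rule through vitrified libraries alone.

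Amino acid carriers (19 genes) had a class median of -0.36 in vitrified against fresh, the lowest of the 15 classes, with 0 called, 14 fold changes below 0 and 5 above. At an unadjusted p below 0.05, 7 were lower and 0 higher, where 4.56% of all tested genes were lower. Without overlap 8 were lower and 0 higher, where 10.6% of all tested genes were lower. The class median stayed between -0.52 and -0.14 under all alternatives run. Without the vitrified libraries that lack Y-linked transcripts it was -0.43, with 13 of 19 below 0. Without fresh replicate 2 the counts at an unadjusted p below 0.05 were 2 lower and 2 higher, so the number on the lower side depended on that library. In that fit the median of all tested genes was 0.22 in place of 0.14.

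Slc6a14 encodes system B0,+, which takes up neutral and cationic amino acids with sodium and chloride, and lies on the X chromosome from 21714896 to 21742355, plus strand. It read 138 and 132 FPKM fresh, 80.1, 59.9 and 59.2 vitrified, and 140, 84.2 and 91.6 with melatonin. The vitrified libraries were below all 5 others, and the melatonin libraries reached from just above them to the fresh level. The group means were 135 ± 3.89 (SD, n = 2), 66.4 ± 11.9 (n = 3) and 105 ± 30.4 (n = 3) FPKM. Its log2 difference was -1.02 ± 0.23 against fresh (limma adjusted p = 0.0607, not called) and 0.64 ± 0.21 for melatonin against vitrified (adjusted p = 0.23). Vitrified replicate 1, the one with Y-linked transcripts, had 80.1 FPKM. With it as the single vitrified library the difference from fresh was -0.74, and that of melatonin from vitrified 0.35.

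The cationic amino acid carriers of the Slc7 family import arginine and lysine, and Slc7a3 had the most negative log2 difference of all 162 carriers. Slc7a3 (CAT3, X chromosome) read 26.1 and 21.4 FPKM fresh, 3.01, 9.23 and 9.48 vitrified, and 9.92, 14.6 and 11.1 with melatonin. The 3 groups did not overlap, with melatonin between the others, and the log2 differences were -1.71 ± 0.39 against fresh (limma adjusted p = 0.0607) and 0.76 ± 0.35 for melatonin against vitrified (adjusted p = 0.35). The value of 3.01 FPKM in vitrified replicate 1 weighs on both. Without that library the differences were -1.25 and 0.30, and with it as the single vitrified library they were -2.62 and 1.67. Slc7a1 (CAT1) read 7.35 and 8.95 FPKM fresh, 3.22, 5.77 and 4.73 vitrified, and 3.43, 1.65 and 3.41 with melatonin. Both vitrified groups lay below the fresh one, and the melatonin group had the lowest mean, at -1.29 ± 0.30 against fresh (limma adjusted p = 0.134).

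Among carriers of neutral and acidic amino acids, Slc1a1, the glutamate and cysteine importer EAAC1, read 19.2 and 21.9 FPKM fresh, 11.8, 8.35 and 13.7 vitrified, and 24.7, 14.2 and 13.9 with melatonin. The vitrified libraries were below all others (-0.84 ± 0.28 against fresh, limma adjusted p = 0.14), and the row overlaps 4430402I18Rik on the opposite strand. Slc38a2 (SNAT2), a sodium-coupled importer of small neutral amino acids, read 29.9 and 40.9 FPKM fresh, 10.3, 27.4 and 19.4 vitrified, and 18.4, 19.8 and 17.8 with melatonin. Here both vitrified groups lay below the fresh one, and melatonin did not differ from vitrified beyond the spread (0.07 ± 0.30). Slc7a5, the light chain LAT1 that pairs with the heavy chain Slc3a2, read 10.1 and 15.7 FPKM fresh, 5.32, 7.65 and 6.96 vitrified, and 7.83, 3.91 and 6.83 with melatonin. All 6 vitrified and melatonin libraries were below the fresh ones. Slc3a2 itself overlapped between the groups, at 85.4 and 144 FPKM fresh, 72.5 to 87.4 vitrified and 63.5 to 108 with melatonin.

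Slc7a8 (LAT2) was the amino acid carrier with the largest difference between melatonin and vitrified. It read 14.6 and 17.6 FPKM fresh, 15.0, 8.28 and 17.1 vitrified, and 38.8, 19.5 and 27.6 with melatonin. The melatonin libraries were above all 5 others (1.04 ± 0.30 against vitrified, limma adjusted p = 0.197, not called). Slc38a1 (SNAT1), a glutamine importer, read 9.62 and 11 FPKM fresh, 10.1, 12.6 and 16 vitrified, and 6.61, 7.62 and 9.84 with melatonin. Its melatonin libraries were below the vitrified ones (-0.62 ± 0.21, limma adjusted p = 0.241). Slc7a6 (y+LAT2), Slc1a5 (ASCT2) and Slc38a4 (SNAT4) overlapped between fresh and vitrified, at 39.9 to 85.5, 4.77 to 10.6 and 77.5 to 117 FPKM over those 5 libraries. Slc7a7 (y+LAT1), which exchanges cationic for neutral amino acids, read 19.9 and 23.5 FPKM fresh, 17.1, 15.4 and 14.1 vitrified, and 20.5, 16.4 and 16.8 with melatonin. Its difference from fresh was -0.46 ± 0.18 (limma adjusted p = 0.196), and it overlaps Oxa1l on the opposite strand.

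**Figure D4:**
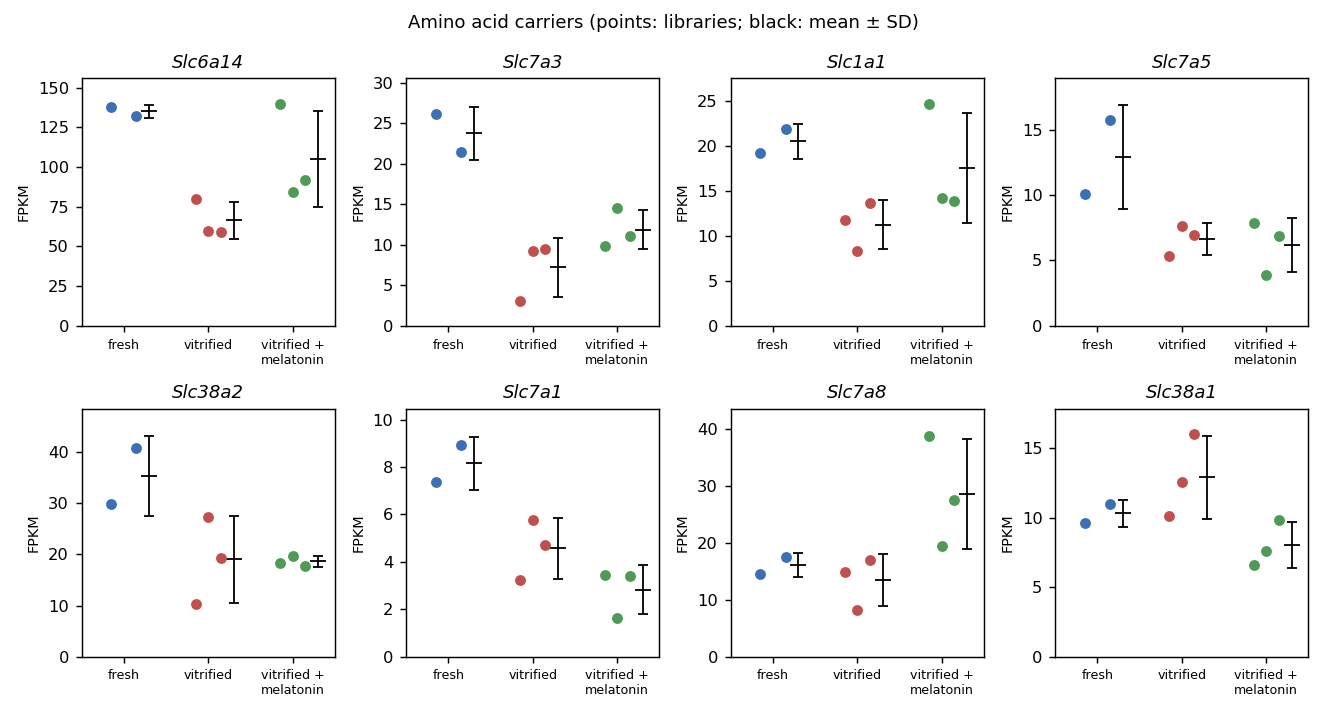
FPKM in each library (points; linear axis from 0) for 8 amino acid carriers, with mean ± SD in black for fresh (n = 2), vitrified (n = 3) and vitrified with melatonin (n = 3). The fresh libraries are above the vitrified ones for Slc6a14, Slc7a3, Slc1a1, Slc7a5, Slc38a2 and Slc7a1, and the melatonin libraries of Slc7a8 (19.5 to 38.8 FPKM) are above all others.

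Several amino acid carriers are known targets of ATF4, the transcription factor of the amino acid response, which binds with C/EBP proteins to composite elements. A list of 8 such carriers was compiled with earlier results of these data known, and 7 were tested. Their median was -0.74 in vitrified against fresh and -0.87 in melatonin against fresh, beside 0.14 and 0.09 for all tested genes, and 0.07 in melatonin against vitrified. Of the 7, 4 were lower at an unadjusted p below 0.05 in each comparison with fresh, and 0 were called. Of all tested genes 4.56% were lower at that p in vitrified and 6.82% in melatonin against fresh. The list overlaps the amino acid class described above, so its counts are not separate from those of the class. The upstream windows of RefSeq (250 bases before each start, both strands searched) were available for 15 of the 19 amino acid carriers. Bases after the start were not searched, so an element there would be missed. The composite element TGATGNAA was found in 3.45% of all 32851 windows and in 1.79% of 168 windows of 126 carriers. Among amino acid carriers it was found in Slc7a7 alone, which is not on the list of 8. The windows printed to show this are that of Slc6a14, the most abundant amino acid carrier, and 1 of the 5 windows of Slc7a7, whose match begins 141 bases before the start (position -141) and is in capitals.
Slc6a14, chrX:21714650-21714899, plus strand: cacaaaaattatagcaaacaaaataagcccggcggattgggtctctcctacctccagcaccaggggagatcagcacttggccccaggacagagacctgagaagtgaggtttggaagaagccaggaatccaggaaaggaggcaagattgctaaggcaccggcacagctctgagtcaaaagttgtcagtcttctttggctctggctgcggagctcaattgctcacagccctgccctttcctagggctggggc
Slc7a7, chr14:54417945-54418194, minus strand: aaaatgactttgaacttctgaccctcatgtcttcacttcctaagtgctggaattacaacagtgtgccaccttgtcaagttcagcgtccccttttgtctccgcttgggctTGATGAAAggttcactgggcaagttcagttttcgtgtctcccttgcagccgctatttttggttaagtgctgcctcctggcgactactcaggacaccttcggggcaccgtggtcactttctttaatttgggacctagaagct
The Slc6a14 window holds 0 matches to the motifs searched. A match is a stretch of letters and not a measured binding site. The E-box CACGTG was found in 6.02% of all windows and 13.1% of carrier windows, the metal response core TGCGCNC in 12.5% and 18.5%, and TGCACNC in 10.4% and 10.7%. Among 19 metal and heme carriers with a window, TGCGCNC was found in 5 and TGCACNC in 5, with Slc39a11 in both.

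Zinc importers of the Slc39 family (11 genes) had a median of 0.01 in vitrified against fresh, and zinc exporters of the Slc30 family (7 genes) 0.14. Of the 11 importers 1, Slc39a4, was called and 10 were not, and of the 7 exporters 0 were called. The endoplasmic reticulum zinc channel Slc39a7 read 8.20 and 11.3 FPKM fresh, 4.92, 8.48 and 6.31 vitrified, and 11.7, 10.5 and 10.3 with melatonin. Its melatonin libraries lay above the vitrified ones (0.67 ± 0.21, limma adjusted p = 0.219). The plasma membrane zinc exporter Slc30a1, a classic target of the metal response, read 5.54 and 5.75 FPKM fresh, 4.33 to 7.70 vitrified and 3.28 to 5.41 with melatonin. Slc30a6 (ZnT6), a zinc carrier of the secretory pathway, overlapped between all groups, at 28.2 to 41.8 FPKM in all 8 libraries.

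Mitochondrial carriers (29 genes) had a median near 0 in all comparisons, at 0.08 in vitrified against fresh, 0.03 in melatonin against vitrified and 0.11 in melatonin against fresh, with 0 called. Slc25a5 (ANT2), the ADP/ATP carrier of dividing cells and X-linked, read 701 and 610 FPKM fresh, 642, 871 and 881 vitrified, and 516, 652 and 664 with melatonin. Its 2 highest libraries were vitrified replicates 2 and 3, the ones with 0 Y-linked FPKM, and with vitrified replicate 1 alone the difference from fresh was -0.03 in place of 0.27 ± 0.19. Slc25a5 has near-identical processed copies in the mouse genome, so its level is uncertain where reads could be shared. Slc25a4 (ANT1), the muscle form, read 289 and 332 FPKM fresh, 304 to 359 vitrified and 302 to 371 with melatonin. Slc25a31 (ANT4), the germ cell form, read 5.97 and 4.61 fresh, 1.94 to 4.66 vitrified and 1.58 to 3.93 with melatonin. Slc25a5 made up 62.9% to 73.8% of the summed FPKM of the ADP/ATP carriers. The phosphate carrier Slc25a3, which supplies ATP synthase, read 110 to 125 FPKM in the fresh and vitrified libraries and 96.8 to 119 with melatonin.

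Within the Slc25 family the lowest limma adjusted p in vitrified against fresh was 0.0645, for Slc25a43, a carrier without an established substrate on X. It read 13.0 and 15.6 FPKM fresh, 8.07, 6.03 and 8.49 vitrified, and 12.1, 10.0 and 11.1 with melatonin. The groups did not overlap, with melatonin between the others (-0.85 ± 0.20 for vitrified against fresh, 0.51 ± 0.18 for melatonin against vitrified). With vitrified replicate 1 alone these differences were -0.75 and 0.41. Slc25a33, a mitochondrial pyrimidine nucleotide carrier, read 39.1 and 35.9 FPKM fresh, 19.5, 25.3 and 28.2 vitrified, and 17.5, 20.6 and 25.6 with melatonin. Both vitrified groups lay below the fresh one (-0.62 ± 0.21, limma adjusted p = 0.145, and -0.81 ± 0.21, adjusted p = 0.143), and its row overlaps Gm13068 on the opposite strand. Slc25a39, the mitochondrial glutathione importer, is next by level in the family after Slc25a3 and was chosen after its values were seen. It read 109 in both fresh libraries, 71.2 to 85.2 vitrified and 83.5 to 101 with melatonin, so that both vitrified groups lay below the fresh one. Slc25a13 (citrin), the aspartate/glutamate carrier, read 5.18 and 9.22 FPKM fresh, 11.5 to 14.6 vitrified and 9.16 to 14.0 with melatonin.

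**Figure D5:**
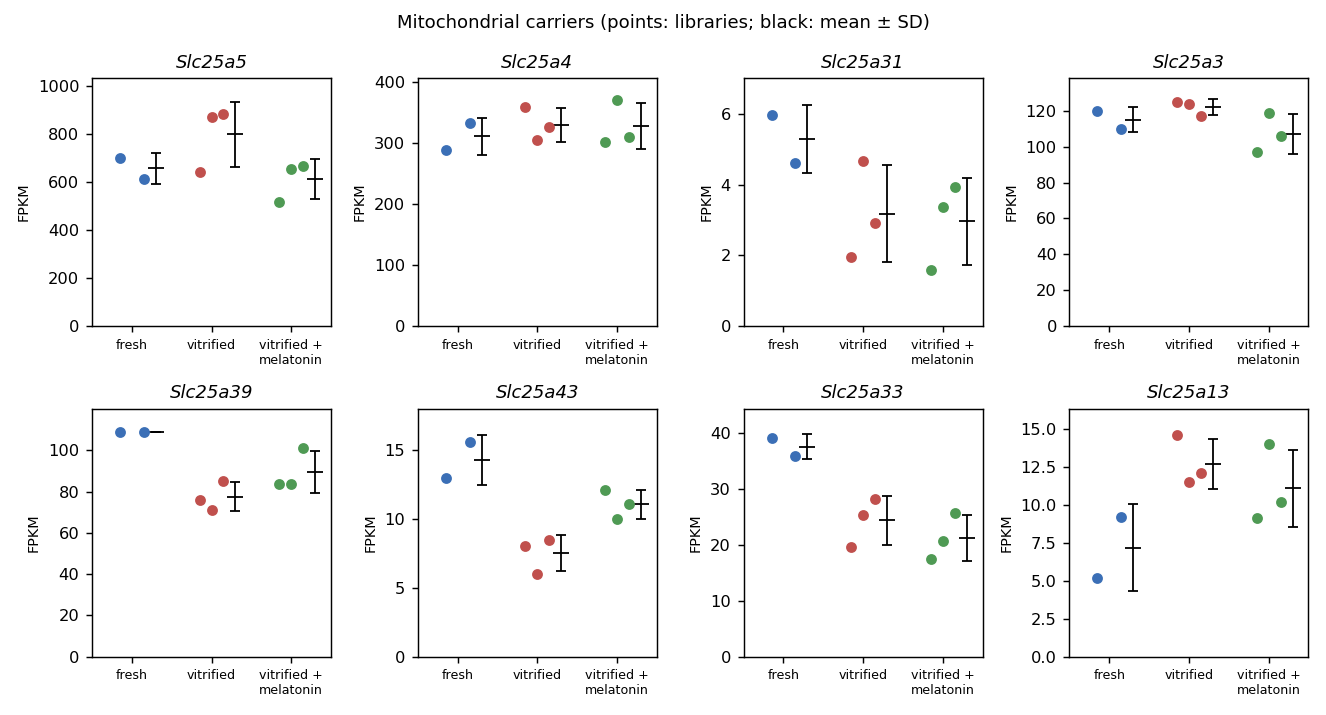
FPKM in each library (points; linear axis from 0) for 8 mitochondrial carriers, with mean ± SD in black for fresh (n = 2), vitrified (n = 3) and vitrified with melatonin (n = 3). Slc25a5 is at 516 to 881 FPKM with overlapping groups, while the fresh libraries of Slc25a43 (13.0 and 15.6) and Slc25a33 (39.1 and 35.9) are above all vitrified ones.

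Vitamin and choline carriers (12 genes) had a median of 0.26 in vitrified against fresh, with 3 higher and 4 lower without overlap. Of all tested genes 26.4% were higher and 10.6% lower without overlap in that comparison. Slc5a6, the biotin and pantothenate importer SMVT, read 4.32 and 4.99 FPKM fresh, 10.2, 9.17 and 12.1 vitrified, and 11.6, 18.6 and 9.60 with melatonin. All vitrified libraries were above the fresh ones (1.02 ± 0.26, limma adjusted p = 0.079, and 1.29 ± 0.26 with melatonin, adjusted p = 0.116), and the row overlaps Atraid on the opposite strand. Slc44a1 (CTL1), a choline carrier, read 26.5 and 27.2 FPKM fresh, 39.3, 39.4 and 43.6 vitrified, and 35.8, 30.7 and 33.0 with melatonin. Its groups did not overlap, and melatonin lay between the others (0.58 ± 0.15 for vitrified against fresh, limma adjusted p = 0.0745). The most abundant of the class, the proton-coupled folate carrier Slc46a1, overlapped between all groups, at 59.3 to 88.2 FPKM. Slc44a4, a carrier of thiamine pyrophosphate, read 90.3 and 59.2 FPKM fresh, 40.9 to 57.1 vitrified and 54.2 to 99.9 with melatonin.

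Nucleoside carriers (5 genes) included genes on both sides. Slc43a3, a nucleobase carrier, read 11.9 and 12.8 FPKM fresh, 22.9, 18.1 and 28.8 vitrified, and 19.6, 29.2 and 27.5 with melatonin. Both vitrified groups were above the fresh one (0.84 ± 0.23, limma adjusted p = 0.091, and 0.97 ± 0.23, adjusted p = 0.141). Slc28a3 (CNT3), a concentrative nucleoside importer, read 25.7 and 30.0 FPKM fresh, 18.0, 19.7 and 21.1 vitrified, and 28.1, 23.4 and 24.4 with melatonin. Its vitrified libraries were below all 5 others (-0.49 ± 0.17 against fresh, limma adjusted p = 0.144).

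Sugar and polyol carriers (11 genes) had a median of 0.50 in vitrified against fresh, with 9 fold changes above 0 and 0 called. Without Slc2a12, which met the rule through vitrified libraries alone, it was 0.53. Slc2a8 (GLUT8), an intracellular glucose carrier, read 2.45 and 2.27 FPKM fresh, 7.40, 5.29 and 4.77 vitrified, and 4.48, 2.10 and 4.05 with melatonin. The vitrified libraries were above all 5 others (1.00 ± 0.29 against fresh, limma adjusted p = 0.0976). Slc37a2, a sugar phosphate exchanger of the endoplasmic reticulum, read 2.17 and 2.93 FPKM fresh, 5.50, 3.96 and 4.45 vitrified, and 5.42, 6.46 and 5.21 with melatonin. Its row overlaps Gm10177 on the opposite strand, which averaged 60.3 FPKM over the libraries. The largest fold change of the class, 2.10 for Slc5a4b, was noted after its values were seen and rests on vitrified replicate 2, at 22.1 FPKM, while the other 7 libraries read 0.161 to 7.23 and the groups overlapped (limma adjusted p = 0.178). The inositol importer Slc5a11, highest of the class, overlapped at 12.6 to 23.8 FPKM.

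Among the other classes, the nucleotide sugar class (17 genes), mostly of the endoplasmic reticulum and Golgi, had a median of 0.06 in vitrified against fresh. It holds members with another or no known substrate, such as Slc35b1 and Slc35e4, so its median is not that of nucleotide sugar carriers alone. Slc35e4, of no known substrate, read 0.114 and 0.506 FPKM fresh, 2.19, 1.52 and 1.29 vitrified, and 1.03, 0.584 and 1.11 with melatonin (1.03 ± 0.26 for vitrified against fresh, limma adjusted p = 0.0736). Slc35b1, the ATP importer of the endoplasmic reticulum, read 66.7 and 58.5 FPKM fresh, 46.3 to 58.2 vitrified and 45.3 to 53.4 with melatonin. The taurine importer Slc6a6 read 2.58 and 5.58 FPKM fresh, 5.63 to 7.58 vitrified and 6.61 to 6.88 with melatonin, so that both vitrified groups were just above the fresh one. The creatine importer Slc6a8, on X, overlapped at 10.9 to 28.5 FPKM. The lactate and pyruvate carrier Slc16a1 (MCT1), which embryos use before glucose becomes a main fuel, also overlapped, at 14.5 to 31.5 FPKM. Its partner Bsg (basigin), from a list of partner proteins, read 338 and 260 FPKM fresh, 208 to 215 vitrified and 236 to 271 with melatonin (limma adjusted p = 0.122 for vitrified against fresh).

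Melatonin against vitrified asked what the added melatonin changed, and shares the vitrified libraries with the comparison above. By limma 0 of 162 carriers were called in either direction, with a lowest adjusted p of 0.176, beside 0.0279% of all tested genes called higher and 0.112% lower. At an unadjusted p below 0.05, 15 carriers were higher and 12 lower (9.26% and 7.41%), beside 4.59% and 10.2% of all tested genes. The libraries did not overlap for 25 carriers higher and 19 lower (15.4% and 11.7%), beside 9.3% and 15.4% of all tested genes. The shares on the higher side were above those of all tested genes and the shares on the lower side below them, with no test of that difference. The median was 0.02 for the carriers and -0.05 for all tested genes. The amino acid class had a median of 0.19, with 5 genes higher and 1 lower without overlap, and the ion class -0.32, with 1 higher and 3 lower.

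The fatty acid carrier Slc27a4 (FATP4) and Slc35g1, of the Slc35 family, had the lowest adjusted p. Slc27a4 read 6.22 and 10.3 FPKM fresh, 5.74, 3.76 and 3.72 vitrified, and 12.6, 8.85 and 7.43 with melatonin. The vitrified libraries were the 3 lowest of the 8 (0.97 ± 0.26 for melatonin against vitrified, limma adjusted p = 0.176). Slc35g1 read 3.92 and 6.54 FPKM fresh, 5.01, 4.12 and 4.60 vitrified, and 8.63, 8.53 and 7.79 with melatonin, where the melatonin libraries were the 3 highest (0.74 ± 0.20, adjusted p = 0.176). On the other side, Slc27a3, a fatty acid carrier family member, read 0.870 and 1.19 FPKM fresh, 2.25, 2.46 and 1.51 vitrified, and 1.24, 0.724 and 0.527 with melatonin, below the vitrified libraries in all 3 (-0.75 ± 0.23, adjusted p = 0.211). Slc46a3, a lysosomal carrier, read 0.429 and 1.36 FPKM fresh, 1.90, 2.53 and 2.67 vitrified, and 0.947, 0.883 and 0.990 with melatonin, again below the vitrified libraries in all 3 (-0.79 ± 0.23, adjusted p = 0.199). The melatonin mean lay between the fresh and vitrified means for 54 of the 162 carriers (33.3%), beside 38.1% of all tested genes, with no test of that difference.

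Melatonin against fresh shares its libraries with both comparisons above. By limma 0 carriers were called, with a lowest adjusted p of 0.116, beside 0% of all tested genes in either direction. Without fresh replicate 2, 15 carriers were called, all higher (9.32% of 161 tested), beside 3.92% of all genes tested in that fit called higher and 1.4% lower. Under every other alternative run 0 carriers were called. At an unadjusted p below 0.05, 27 carriers were higher and 8 lower (16.7% and 4.94%), beside 11.6% and 6.82% of all tested genes. Groups did not overlap for 37 carriers higher and 18 lower (22.8% and 11.1%), beside 20.8% and 13.5% of all tested genes. The genes with the lowest adjusted p, 0.116 each, were Slc22a5, Slc22a21, Slc4a11, Slc39a4 and Slc5a6, described above, all higher with melatonin than in fresh blastocysts. Slc4a11 differed by 1.55 ± 0.31 and Slc39a4 by 1.37 ± 0.28 from fresh in the melatonin group, and from vitrified by -0.39 ± 0.28 and -0.12 ± 0.25. On the lower side the lowest adjusted p was that of Slc7a1 (0.134). The dicarboxylate carrier Slc13a2 read 3.98 and 15.5 FPKM fresh, 9.85 to 15.1 vitrified and 18.4 to 25.6 with melatonin, with all melatonin libraries above the others.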

How the data were processed

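The authors deposited 1 table of FPKM per gene and library, on genome build mm10 per the submitters' processing notes. The aligner, counting tool, filters and strand setting were not given in the sources used here, and the series description and the labels' protocols differ on the library method. Differences were tested by limma 3.58.1 (R 4.3.3) as a linear model of log2(FPKM + 1) with a variance trend, 2-sided. All 8 libraries and 3 groups entered 1 model, over 10755 genes at 1 FPKM or more in at least 2 libraries, with Benjamini-Hochberg adjustment over all of them. Fold changes on this scale understate the change of low genes. Simulated data with known changes and independent noise were run through the model. They say nothing on shifts that many genes of a library share.

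Members and lists were chosen with earlier results of these data known. Genes were named by a rule: called genes, the 2 highest of each class of 4 or more, the smallest p per direction and class, and 3 short lists, 76 genes in all. Other carriers named are those at the edge of the rule, in promoter windows, or singled out as chosen after their values were seen. Genes named from the lists of markers, partner proteins and transporters with other symbols were picked without such a rule. Among these are Tmem165, Nipa2, Ucp2, Car2 and Bsg. All 162 members matched GENCODE M21, of which 49 overlap another gene of the table, and not every overlap is given where the gene is named. Fragment numbers were estimated from FPKM times length, whole within 0.1 for 94.5% to 96.7% of low values. Tables and figures were made with Python 3.11.15, pandas 2.3.3 and matplotlib 3.10.9. Some genes are not reported here.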

Additional observations from a re-analysis of the deposited data

How the results depend on the processing

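The 3 calls in vitrified against fresh became 0 under median-ratio scaling, quantile normalization and no filter on low values. They also became 0 in a fit of only the groups compared and with either replicate block. Calls were lost over the whole table as well, where 0.762% of tested genes had been called higher. In the order above, that share became 0.0279%, 0%, 0%, 0.0279%, and 0% (biosample number) or 0.186% (title number). At an adjusted p below 0.1 there were 15 calls (12 higher, 3 lower), with no share of all tested genes given here. Without the trend 2 of the 3 calls remained, beside 0.707% of all tested genes called higher. With a mean of at least 5 FPKM or a pseudocount of 0.1 all 3 remained, beside 1.24% and 0.855%. Leaving out 1 library gave 0 to 6 calls. There were 6 without fresh replicate 2, of which 1 is among the 3. There was 1 without vitrified replicate 2, 1 without melatonin replicate 2 and 0 without any other. Of all genes tested in these fits 3.52%, 0.038% and 0.357% were called higher without fresh replicate 2, vitrified replicate 2 and melatonin replicate 2. For melatonin against fresh, leaving out 1 library gave 0 to 15 calls, with 15 higher without fresh replicate 2 and 0 otherwise, and for melatonin against vitrified every setting gave 0. Leaving out vitrified replicates 2 and 3 was a setting chosen after seeing the data. The lone vitrified library is then assumed to vary like the other groups, so only differences are given. In vitrified against fresh they were -2.62 for Slc7a3, 2.45 for Slc4a11, 1.66 for Slc17a5 and 1.83 for Slc39a4. With all libraries they were -1.71, 1.93, 1.52 and 1.49. The cause of these shifts was not tested. The median in vitrified against fresh (0.12) was -0.06 under quantile normalization, 0.29 with the title number as block, and -0.02 and 0.26 without fresh replicate 1 and 2; in melatonin against fresh (0.11) it was 0.27 with that block and -0.01 to 0.25 when 1 library was left out. Replicate numbers did not pair the libraries: in the paired check the correlations of deviations were -0.115 to 0.121. Of 76 named genes 25, 23 and 25 changed sign in at least 1 setting in the 3 comparisons, none while called. Few libraries, 2 fresh, limit every comparison with that group.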

Other observations

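Solute carrier rows below the level of the rule were 126, of which 11 reached 1 FPKM in a single library and 29 stayed below 0.1 FPKM in all. Rows above 0 numbered 58 and 61 in the fresh libraries, 75, 89 and 82 in the vitrified ones, and 65, 65 and 64 with melatonin. Over the whole table, genes above 0 numbered 14260 and 14741 fresh, 15749 to 16400 vitrified and 14544 to 14889 with melatonin, so the vitrified libraries were again the highest while fresh and melatonin overlapped. The myo-inositol importer Slc5a3, an osmolyte carrier, read 0.035 and 0.286 FPKM fresh, 0.922, 1.10 and 0.511 vitrified, and 0.193 to 0.272 with melatonin, and was chosen after its values were seen. The amino acid carrier Slc38a5, chosen likewise, read 0.747 and 1.28 FPKM fresh and at most 0.299 in the other 6 libraries.

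Transporter genes with other symbols (23 tested of a list of 35) had a median of 0.26 in vitrified against fresh and -0.26 in melatonin against vitrified, with 0 called. Tmem165, a Golgi manganese and calcium carrier, read 6.91 and 5.57 FPKM fresh, 10.8, 11.4 and 13.2 vitrified, and 7.62 to 8.06 with melatonin (limma adjusted p = 0.0594 for vitrified against fresh). Nipa2, a magnesium carrier, had the reverse order, with 22.9 and 24.0 FPKM fresh, 17.8, 13.8 and 12.9 vitrified, and 21.1 to 24.3 with melatonin (adjusted p = 0.0948). The mitochondrial uncoupling family gene Ucp2 read 7.82 and 3.67 FPKM fresh, 4.39 to 7.90 vitrified and 1.51 to 2.12 with melatonin (adjusted p = 0.159 for melatonin against vitrified). Among 15 tested partner proteins of transporters, the carbonic anhydrase Car2 read 24.5 and 28.1 FPKM fresh, 7.08, 27.4 and 7.41 vitrified, and 1.45 to 5.22 with melatonin.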
